A study of Mus musculus with 24 samples.

Results

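The 10 genes described here encode the catalytic core of Polycomb repressive complex 1 (PRC1) and the subunits that divide it into subtypes: the RING genes Ring1 and Rnf2, the PCGF genes Pcgf1, Pcgf2, Pcgf3, Bmi1 (which encodes PCGF4), Pcgf5 and Pcgf6, and the variant PRC1 genes Rybp and Kdm2b. They were taken by gene symbol from a count table of mouse RNA sequencing, in which all 10 were among 23284 gene symbols, and all 10 were also among the 14970 genes with enough counts to be tested. Poly(A) RNA came from C57BL/6 embryonic stem cells and the embryoid bodies (EBs) they formed, in 24 libraries: 4 genotypes in 3 states (the one labelled 3i, EB day 1 and EB day 2), with 2 libraries in each of 12 groups.

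The genotypes differ at Eed, which encodes a core subunit of PRC2, the Polycomb enzyme for methylation of histone H3. KO+N-KR is the knockout line carrying the EED form labelled N-KR, an abbreviation the labels do not spell out, and KO+WT is the knockout line carrying wild-type EED. KO is the line after deletion of Eed. All of these lines are labelled as treated with tamoxifen (4-hydroxytamoxifen at 800 nM in the protocol), whereas f/f is the conditional line without it, so against f/f the deletion, the drug and the history of the line cannot be told apart. The labels name no clones and no separate cultures. The culture protocol puts the stem cells on embryonic fibroblast feeders in serum and LIF, and 3i is not defined there.

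PRC1 places ubiquitin on histone H2A through RING1 or RNF2, which act as E3 ligases only when paired with a PCGF protein. PCGF2 and BMI1 form canonical PRC1 with CBX and PHC proteins, and CBX proteins read the H3 methylation that PRC2 leaves. PCGF2 and BMI1 also occur in variant complexes. PCGF1, PCGF3, PCGF5 and PCGF6 form variant PRC1 with RYBP or its paralog YAF2, and KDM2B brings the PCGF1 complex to unmethylated CG-rich DNA through its CXXC zinc finger. In mouse embryonic stem cells the variant complexes are known to place most of the H2A mark.

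Promoter sequences are shown for Pcgf2, Bmi1, Pcgf5 and Kdm2b, the members that passed the test when wild-type EED was present in the knockout, with CG dinucleotides, the bases read by the KDM2B zinc finger, in capitals. Each runs from 250 bases before a RefSeq start site to 50 bases after it, 5′ to 3′ on the gene's strand, on GRCm38.p6. Of the 10 members 8 had an entry in the promoter table, and where a gene had several starts the window with the most CG is shown.
Pcgf2, chr11:97699599-97699898, minus strand: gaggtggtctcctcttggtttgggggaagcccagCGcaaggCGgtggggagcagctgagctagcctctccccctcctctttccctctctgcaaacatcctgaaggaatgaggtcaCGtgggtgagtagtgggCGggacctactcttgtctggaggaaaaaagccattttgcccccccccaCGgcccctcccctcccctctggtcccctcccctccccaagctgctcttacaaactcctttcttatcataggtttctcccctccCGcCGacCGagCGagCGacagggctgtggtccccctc
Bmi1, chr2:18676768-18677067, plus strand: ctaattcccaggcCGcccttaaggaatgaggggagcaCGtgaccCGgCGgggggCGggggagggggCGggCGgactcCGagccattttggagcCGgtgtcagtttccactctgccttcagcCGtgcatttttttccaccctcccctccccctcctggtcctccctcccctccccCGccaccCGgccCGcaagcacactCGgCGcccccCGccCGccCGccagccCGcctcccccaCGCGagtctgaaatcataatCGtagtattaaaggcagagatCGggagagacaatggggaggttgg
Pcgf5, chr19:36409498-36409797, plus strand: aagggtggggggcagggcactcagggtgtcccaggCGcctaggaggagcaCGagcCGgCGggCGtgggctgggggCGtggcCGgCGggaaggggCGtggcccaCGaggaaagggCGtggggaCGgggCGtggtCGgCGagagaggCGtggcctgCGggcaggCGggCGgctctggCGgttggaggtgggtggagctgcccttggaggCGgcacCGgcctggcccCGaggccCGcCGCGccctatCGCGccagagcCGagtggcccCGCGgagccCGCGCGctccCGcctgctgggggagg
Kdm2b, chr5:122900301-122900600, minus strand: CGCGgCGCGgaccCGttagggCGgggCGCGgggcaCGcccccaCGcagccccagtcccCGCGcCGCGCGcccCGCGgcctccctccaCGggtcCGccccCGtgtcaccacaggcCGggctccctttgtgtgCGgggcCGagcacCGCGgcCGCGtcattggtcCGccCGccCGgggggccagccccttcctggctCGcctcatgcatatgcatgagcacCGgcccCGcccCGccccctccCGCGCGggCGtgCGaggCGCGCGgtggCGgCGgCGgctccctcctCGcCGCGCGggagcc
The Kdm2b window held 49 CG, a number reached by 1.02% of 32851 RefSeq promoter windows of the same length, which had a median of 7. The Pcgf5 window held 35 CG (reached by 6.95%), the Bmi1 window 23 (21.5%) and the Pcgf2 window 10 (43.5%). Windows at other starts held 47, 28 and 18 CG for Kdm2b and 34 and 5 CG for Pcgf5, so the shares for these genes are those of their richest window. The E-box CACGTG, a palindrome that MAX and its partners bind, was found once each in the Bmi1 and Pcgf2 windows and in 7.15% of all windows. The E2F-type motif TTCCCGCC, searched on both strands, was found once in the Pcgf5 window and in 2.19% of all windows. These matches are letters in a window and were not tested as binding sites.

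The 24 libraries held 7553683 to 14426034 counts each. Both libraries of a group agreed almost within sampling noise, with a variance between them of 1.096 to 1.18 times the binomial one, and between genotypes of a state it was 3.45 to 15.4 times. The pair was therefore summed to 1 sample per group (18017598 to 25160294 counts), and levels are given as CPM, counts scaled by library size with TMM factors. Tests use edgeR's quasi-likelihood test with Benjamini-Hochberg adjustment over 14970 genes and a threshold of 0.05, in a fit of genotype and state to the 12 samples. A genotype is thus measured by its 3 states and a state by its 4 genotypes, so p-values measure how evenly a difference recurs, and they may reflect single cultures. Within a state there is 1 sample per genotype and no test, and ratios carry 95% exact binomial intervals that cover counting error alone. In bulk samples, fewer cells that express a gene and less RNA per cell cannot be told apart.

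The Eed level was 168, 181 and 122 CPM for KO+N-KR (3i, day 1, day 2), 387, 372 and 188 CPM for KO+WT, 138, 173 and 102 CPM for KO, and 175, 219 and 131 CPM for f/f. The table gives 1 count per gene and the labels do not state which part of Eed is deleted, so this level does not check the deletion. The pluripotency factor list (Pou5f1, Sox2, Nanog, Zfp42, Klf4 and Esrrb) summed to 1757 to 3979 CPM over the 12 samples, with no listed gene at 0. Feeder fibroblast genes (11 of 12 listed were tested) summed to 412, 687, 449 and 479 CPM at 3i in KO+N-KR, KO+WT, KO and f/f, and to 41.5 to 104 CPM in the EB samples.

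Set per kb of exon, which allows levels of different genes to be compared, the members spanned a wide range. Rybp, which encodes a core variant PRC1 subunit, had the highest mean, 63.4 CPM per kb over the 12 samples, with a range of 53.1 to 80.01. This range overlapped that of Kdm2b. Pcgf6 (mean 41.5, range 30.2 to 49.2), Rnf2 (39.8, 29.1 to 48.3) and Kdm2b (36.9, 18.4 to 67.5) followed, and their ranges overlapped, so their order is not resolved. Pcgf2 had a mean of 21.2 CPM per kb and a range of 16.7 to 25.4, below every Pcgf6 and Rnf2 sample and overlapping that of Kdm2b. Pcgf1 (9.27, 6.10 to 12.6), Pcgf3 (8.52, 6.70 to 9.76) and Ring1 (5.70, 4.77 to 6.89) each overlapped the next in order. Bmi1 (4.01, 2.25 to 10.7) and Pcgf5 (2.56, 1.55 to 4.63) had the lowest means and overlapped each other, and the range of Bmi1 also overlapped those of Ring1, Pcgf3 and Pcgf1. With the longest transcript as length in place of all exons, Kdm2b ranked 2 and Pcgf6 ranked 4, and the other ranks were the same. Lengths come from a later annotation than the one counted, so the levels per kb are approximate.

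**Figure D1:**
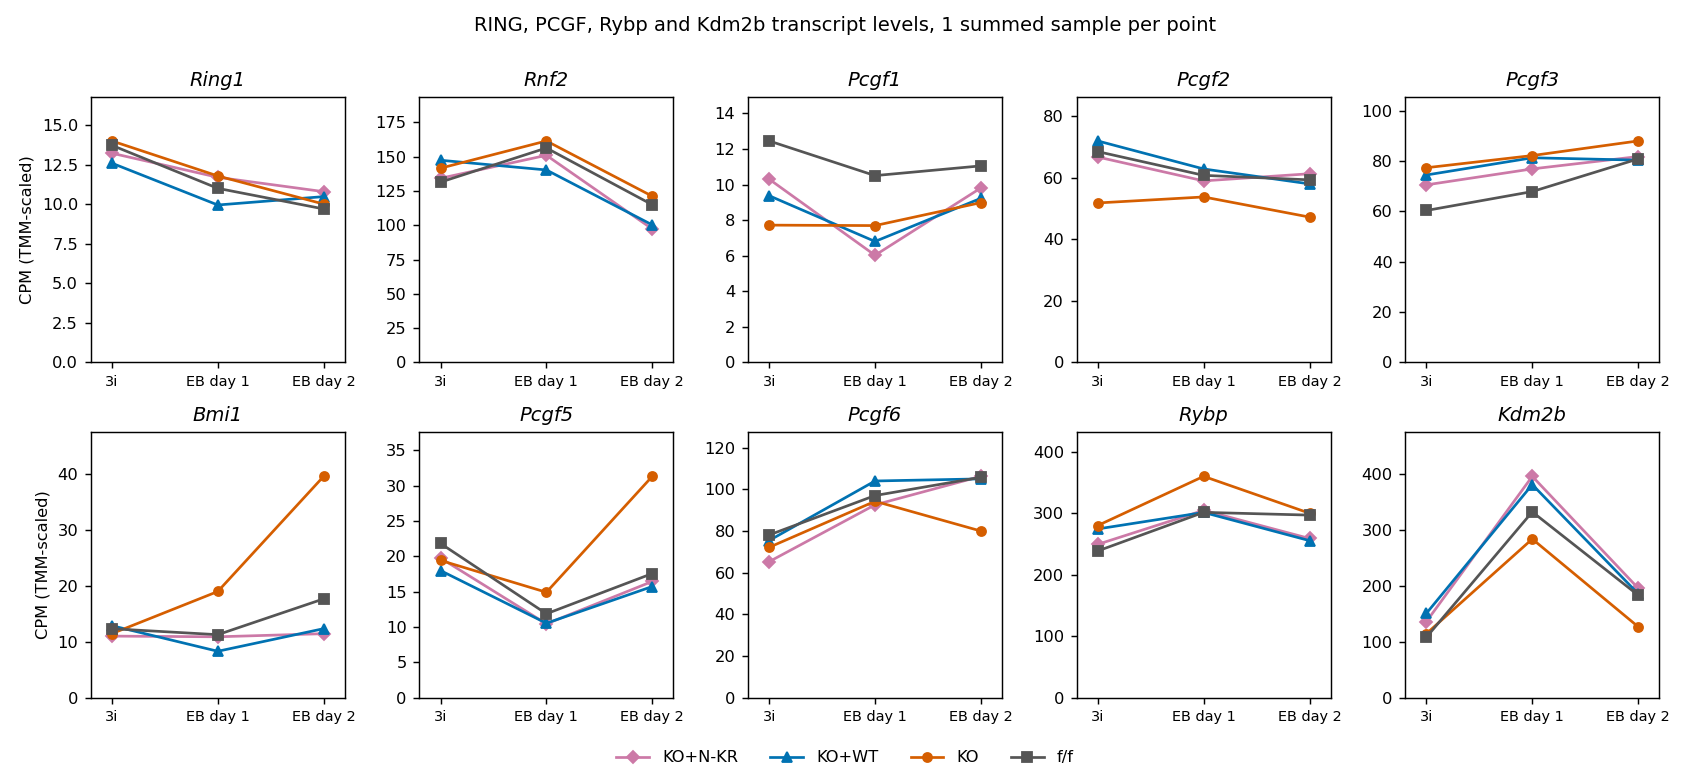
Levels of the 10 genes in CPM (TMM-scaled, axes starting at 0) in each state, with 1 point per genotype and state from the summed libraries. Bmi1 at EB day 2 in KO stands at 39.5 CPM, apart from 11.4 to 17.7 CPM in the other genotypes, and Kdm2b peaks at EB day 1 in each genotype.

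Of the 10 members Ring1 had the smallest range over the 12 samples, with its highest level 1.44 times the lowest, and for Rnf2 this was 1.66 times. Rnf2 encodes the main H2A ubiquitin ligase of embryonic stem cells, and Ring1 its paralog. Ring1 made up 10.4% to 15.4% of the Ring1 and Rnf2 level per kb over the 12 samples. Ring1 was at 13.2, 11.7 and 10.8 CPM at 3i, day 1 and day 2 in KO+N-KR, at 12.6, 9.96 and 10.5 CPM in KO+WT, at 14.0, 11.8 and 10.0 CPM in KO and at 13.7, 11.0 and 9.71 CPM in f/f. No genotype was highest or lowest in all 3 states, and every genotype was lower in EBs than at 3i. Rnf2 was at 134, 151 and 97.3 CPM in KO+N-KR, at 147, 140.3 and 100.3 CPM in KO+WT, at 142, 161 and 121 CPM in KO and at 131, 156 and 115 CPM in f/f. Each genotype had its lowest Rnf2 level at day 2.

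Of the canonical PCGF genes, Pcgf2 was the abundant one in these cells and Bmi1 the scarce one. Pcgf2 was at 66.8, 59.0 and 61.4 CPM in KO+N-KR, at 72.03, 62.9 and 58.1 CPM in KO+WT, at 51.9, 53.8 and 47.3 CPM in KO and at 68.6, 60.8 and 59.4 CPM in f/f. KO was the lowest genotype in each of the 3 states, and its 3 samples did not overlap those of any other genotype. The share of all genes separated in this way was not computed. Bmi1 was at 11.0, 10.9 and 11.4 CPM in KO+N-KR, at 12.9, 8.31 and 12.3 CPM in KO+WT, at 11.5, 19.0 and 39.5 CPM in KO and at 12.3, 11.3 and 17.7 CPM in f/f. KO was within the other genotypes at 3i and above all of them at day 1 and day 2. The single libraries showed the same at day 2, with 39.6 and 39.5 CPM in KO against 12.5 and 9.94 CPM in KO+N-KR, 12.3 and 12.4 CPM in KO+WT, and 18.2 and 17.0 CPM in f/f.

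The variant PCGF genes differed in level and in course. Pcgf6, whose complex holds the DNA-binding pair MGA and MAX, was at 65.3, 92.5 and 106 CPM in KO+N-KR, at 75.4, 104 and 105 CPM in KO+WT, at 72.2, 94.2 and 79.98 CPM in KO and at 78.1, 97.0 and 106 CPM in f/f. At day 2 KO lay below the other 3 genotypes. Pcgf3, a partner of AUTS2 and casein kinase subunits as is Pcgf5, was at 70.5, 76.8 and 81.7 CPM in KO+N-KR, at 74.4, 81.2 and 80.3 CPM in KO+WT, at 77.3, 82.1 and 87.9 CPM in KO and at 60.3, 67.8 and 80.8 CPM in f/f. f/f was the lowest genotype at 3i and day 1. Pcgf5 was at 19.8, 10.5 and 16.5 CPM in KO+N-KR, at 18.0, 10.5 and 15.7 CPM in KO+WT, at 19.4, 14.9 and 31.3 CPM in KO and at 21.8, 11.9 and 17.6 CPM in f/f. KO was highest at day 1 and at day 2 and within the others at 3i. Pcgf1, the PCGF partner of KDM2B and BCOR, was at 10.3, 6.02 and 9.81 CPM in KO+N-KR, at 9.37, 6.80 and 9.23 CPM in KO+WT, at 7.72, 7.69 and 8.99 CPM in KO and at 12.5, 10.5 and 11.1 CPM in f/f. f/f was the highest genotype in each state.

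Rybp was at 249.7, 305 and 259 CPM in KO+N-KR, at 275, 302 and 256 CPM in KO+WT, at 280.3, 360.3 and 300.3 CPM in KO and at 239, 302 and 297 CPM in f/f, with KO highest in each state. Kdm2b was at 136, 395 and 196 CPM in KO+N-KR, at 151, 381 and 186 CPM in KO+WT, at 114, 283 and 127 CPM in KO and at 108, 332 and 183 CPM in f/f. KO was lowest at day 1 and day 2, and each genotype peaked at day 1. Over the 12 samples the highest level was 4.76 times the lowest for Bmi1, 3.66 times for Kdm2b, 2.99 times for Pcgf5 and 2.07 times for Pcgf1, and 1.44 to 1.66 times for the other 6. The largest ratio between libraries of a group ran from 1.04 (Kdm2b) to 1.41 (Ring1) over the members, and Pcgf1, with 125 to 311 counts per summed sample, was among the genes measured least precisely.

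**Figure D2:**
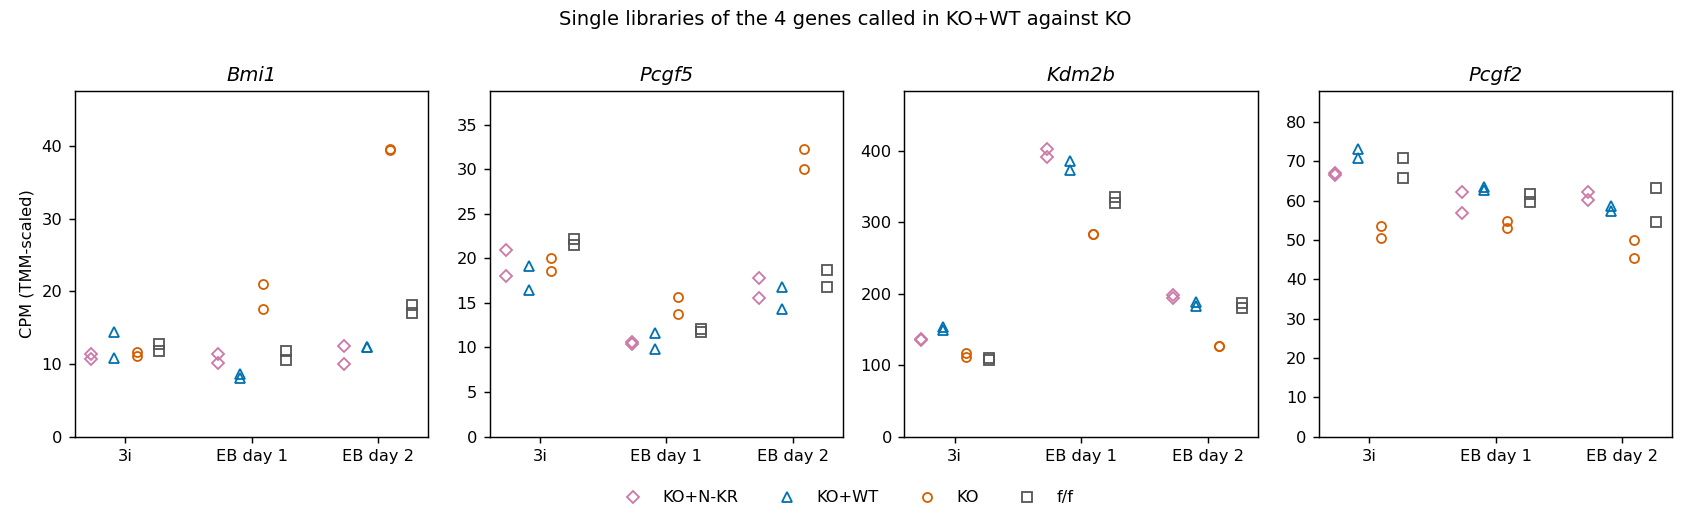
CPM of each of the 24 libraries for Bmi1, Pcgf5, Kdm2b and Pcgf2, with states on the horizontal axis, genotypes by colour and 1 point per library. The largest ratio between libraries of a group is 1.34 for Bmi1, 1.18 for Pcgf5, 1.04 for Kdm2b and 1.16 for Pcgf2. Both KO libraries at EB day 2 stand above every other library for Bmi1 and Pcgf5.

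Comparing KO with f/f asks which of these genes changed with the deletion of Eed. Of the 10 members 3 passed the test, where 9.22% of all genes tested did. Pcgf3 rose in KO (log2 fold change 0.25 ± 0.06 SE, adjusted p = 0.0332 in edgeR's quasi-likelihood test), in a direction where 4.64% of all genes passed. Pcgf2 fell (-0.30 ± 0.07, adjusted p = 0.0201) and Pcgf1 fell (-0.48 ± 0.14, adjusted p = 0.0483), where 4.58% of all genes passed as lower. All 3 showed their direction in each state: over 3i, day 1 and day 2, Pcgf2 in KO had 0.756, 0.885 and 0.796 times its f/f level, and Pcgf3 had 1.28, 1.21 and 1.09 times. The Pcgf1 call is at the threshold and was lost in 8 of 13 other settings, with adjusted p up to 0.229. The Pcgf2 call was lost with the replicate 2 libraries alone (-0.18, adjusted p = 0.139) and without 3i, day 1 or day 2 (adjusted p of 0.0596, 0.185 and 0.0672). The Pcgf3 call was lost without 3i (adjusted p = 0.123), without day 1 (adjusted p = 0.304) and with only KO and f/f in the fit (0.25, adjusted p = 0.0605).

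The other 7 members did not pass in edgeR's quasi-likelihood test. Bmi1 had the largest value of all 10, 0.69 ± 0.25 (95% interval 0.14 to 1.24, adjusted p = 0.0999), and Pcgf5 stood at 0.35 ± 0.15 (0.02 to 0.69, adjusted p = 0.160). Kdm2b was at -0.23 ± 0.09 (adjusted p = 0.110), Pcgf6 at -0.18 ± 0.08 (adjusted p = 0.182) and Rybp at 0.16 ± 0.07 (adjusted p = 0.138). Rnf2 was at 0.08 ± 0.07 with an interval of -0.08 to 0.23, and Ring1 at 0.06 ± 0.10 with an interval of -0.16 to 0.27. The median of the 10 log2 fold changes was 0.07, against 0.00 over all genes tested, and the median of their sizes was 0.24, against 0.15.

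The values of Bmi1, Pcgf5 and Kdm2b, which missed the test, were uneven over states. Without the 3i samples, Bmi1 (0.98, adjusted p = 0.00201), Pcgf5 (0.61, adjusted p = 0.0103) and Kdm2b (-0.38, adjusted p = 0.00613) passed and Pcgf1, Pcgf2 and Pcgf3 did not. Of 14844 genes tested in that fit, 815 passed as higher and 547 as lower. A difference within a state was called by size where it reached 1.5-fold and the higher sample had 5 CPM or more. Pcgf1 was lower by this size in KO at 3i (0.620 times f/f, 0.514 to 0.746), where 2.47% of all genes passed and 0.908% passed as lower. At day 1 Bmi1 was higher (1.68 times, 1.43 to 1.99), where 2.26% passed and 1.59% passed as higher. At day 2 Bmi1 (2.24 times, 1.98 to 2.53) and Pcgf5 (1.78 times, 1.57 to 2.02) were higher, where 5.25% passed and 4.13% passed as higher, and of the members Bmi1 alone was past 2-fold. Kdm2b was 1.06 times f/f at 3i (1.00 to 1.12), 0.854 times at day 1 (0.825 to 0.885) and 0.693 times at day 2 (0.660 to 0.727). Pcgf6 was 0.756 times f/f at day 2 (0.710 to 0.805).

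Cell type markers moved in the same comparison. Of 6 endoderm genes 3 were higher in KO, where 4.64% of all genes passed as higher. Over the 3 states the 6 summed to 156, 54.0 and 72.8 CPM for KO against 126, 38.3 and 48.1 CPM for f/f. Lama1 alone made up 142, 34.6 and 29.7 CPM for KO and 113, 24.0 and 20.6 CPM for f/f. Of 4 epiblast genes 1 was lower, where 4.58% of all genes passed as lower. Their sums were 85.4, 791 and 553 CPM for KO against 79.6, 904 and 1151 CPM for f/f. Dnmt3b, which did not pass, alone made up 429 CPM for KO and 961 CPM for f/f at day 2. Of the 6 pluripotency genes Klf4 was higher (0.45 ± 0.07, adjusted p = 0.00679 in edgeR's quasi-likelihood test) and Pou5f1 lower (-0.24 ± 0.05, adjusted p = 0.0161). None of the feeder genes passed, with sums of 449, 56.7 and 59.0 CPM for KO against 479, 41.5 and 46.9 CPM for f/f. None of these marker genes was at 0 in any sample, and their part in the levels of the PRC1 genes was not tested.

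Comparing KO+WT with KO asks which of these genes moved when wild-type EED was present in the knockout. Of the 10 members 4 passed, 2 in each direction, where 16.2% of all genes tested did. Both lines were treated with tamoxifen, and the history of the line and the EED they carry cannot be told apart. Pcgf2 rose in KO+WT (0.33 ± 0.07, adjusted p = 0.00524) and Kdm2b rose (0.45 ± 0.09, adjusted p = 0.00392), where 7.11% of all genes passed as higher. Bmi1 fell (-0.98 ± 0.26, adjusted p = 0.0225) and Pcgf5 fell (-0.56 ± 0.16, adjusted p = 0.0273), where 9.06% passed as lower. All p-values are from edgeR's quasi-likelihood test with Benjamini-Hochberg adjustment.

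Kdm2b and Pcgf2 were higher in KO+WT in each state. The KO+WT level of Kdm2b was 1.32 times that of KO at 3i (1.25 to 1.39), 1.34 times at day 1 (1.298 to 1.39) and 1.46 times at day 2 (1.40 to 1.53), and that of Pcgf2 was 1.39 times (1.285 to 1.502), 1.17 times (1.08 to 1.27) and 1.23 times (1.13 to 1.33), with the 3i interval above that of day 1. Bmi1 and Pcgf5 differed in the EBs. Bmi1 in KO+WT was 1.12 times KO at 3i (0.941 to 1.34), 0.438 times at day 1 (0.364 to 0.525) and 0.312 times at day 2 (0.274 to 0.356). Pcgf5 was 0.926 times KO at 3i (0.802 to 1.07), 0.707 times at day 1 (0.592 to 0.842) and 0.503 times at day 2 (0.443 to 0.569). By the 1.5-fold size no member passed at 3i (3.49% of all genes did), Bmi1 was lower at day 1 (5.05% passed, 3.44% as lower), and Bmi1 and Pcgf5 were lower at day 2 (7.25% passed, 4.72% as lower). Without day 2 the Bmi1 value was -0.51 (adjusted p = 0.234) and the Pcgf5 value -0.29 (adjusted p = 0.228), and without day 1 none of the 4 members passed. With only KO+WT and KO in the fit, Bmi1 was at -0.94 (adjusted p = 0.0977) and Pcgf5 at -0.54 (adjusted p = 0.0753). Without 3i, Bmi1 was at -1.47 (adjusted p = 2.45e-05) and Pcgf5 at -0.78 (adjusted p = 0.000321).

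**Figure D3:**
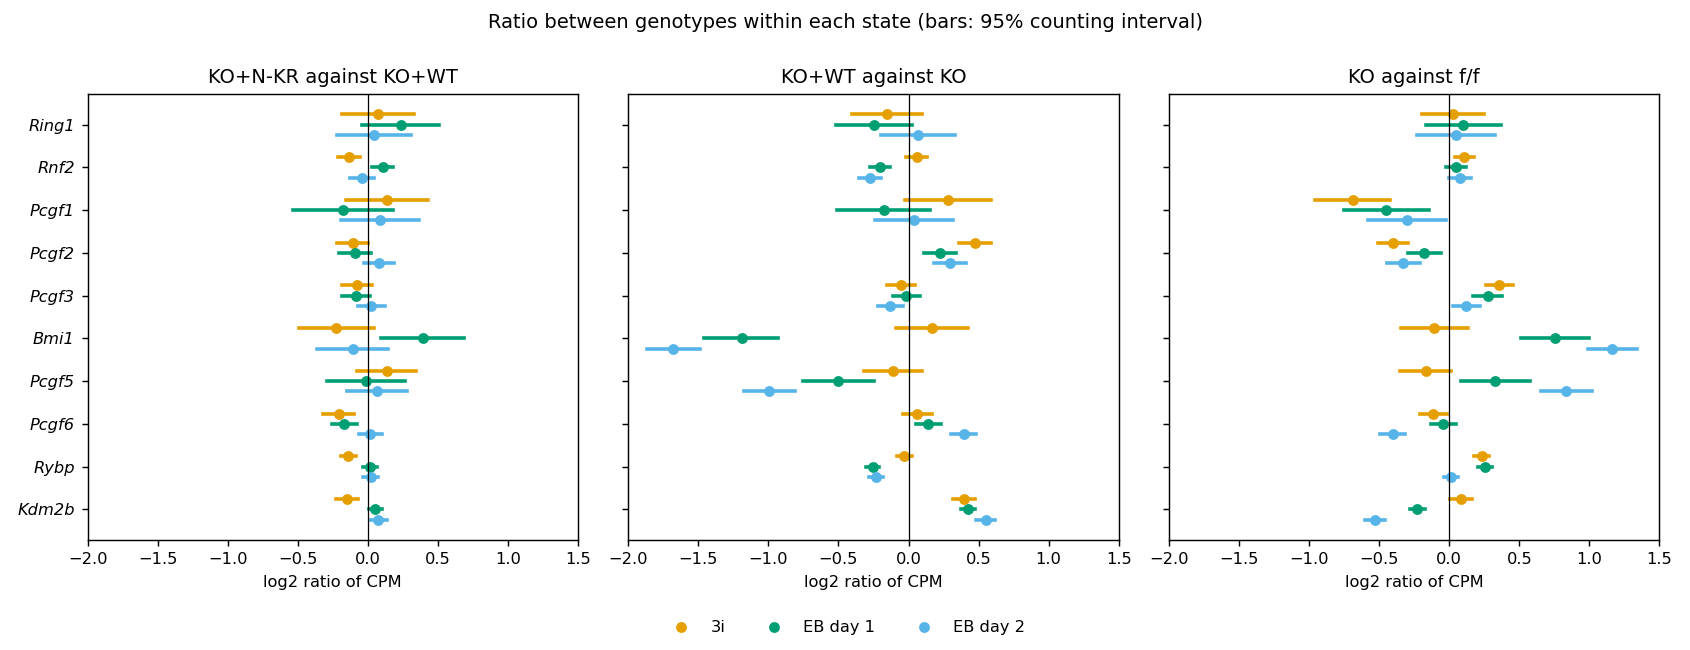
Log2 ratio of TMM-scaled CPM for each member in 3 genotype comparisons, 1 panel each, with 1 point per state from the summed libraries and bars for the 95% counting interval. In KO against f/f and in KO+WT against KO, Bmi1 and Pcgf5 lie near 0 at 3i and far from 0 at EB day 2 on opposite sides, and in KO+N-KR against KO+WT the point farthest from 0 is Bmi1 at EB day 1 (0.39).

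Among the members that did not pass, Pcgf6 was at 0.20 ± 0.08 (adjusted p = 0.136), with 1.31 times the KO level at day 2 (1.24 to 1.39), Rybp at -0.17 ± 0.07 (adjusted p = 0.105) and Rnf2 at -0.14 ± 0.07 (adjusted p = 0.222). Ring1 was at -0.11 ± 0.10, Pcgf3 at -0.07 ± 0.06 and Pcgf1 at 0.05 ± 0.14, with a 95% interval of -0.26 to 0.35 for Pcgf1. KO is shared between this comparison and that with f/f, so the values are not independent of each other. For Pcgf2 they were -0.30 in KO against f/f and 0.33 in KO+WT against KO, for Bmi1 0.69 and -0.98, for Pcgf5 0.35 and -0.56, and for Kdm2b -0.23 and 0.45. For Pcgf1 they were -0.48 and 0.05, and for Pcgf3 0.25 and -0.07.

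Marker genes moved here too. Of 11 feeder genes tested 6 were higher in KO+WT, where 7.11% of all genes passed as higher, with sums of 687, 75.6 and 104 CPM in KO+WT against 449, 56.7 and 59.0 CPM in KO. Of 4 epiblast genes 3 were higher, and their sum at day 2 was 1526 CPM in KO+WT against 553 CPM in KO. Of 6 endoderm genes 4 were lower, where 9.06% of all genes passed as lower. The 6 summed to 165, 31.0 and 47.3 CPM in KO+WT against 156, 54.0 and 72.8 CPM in KO. Lama1, which did not pass, alone made up 153, 23.1 and 28.2 CPM in KO+WT and 142, 34.6 and 29.7 CPM in KO, so the sums mostly follow that gene at 3i. Of the 6 pluripotency genes Pou5f1 was higher (0.23 ± 0.05, adjusted p = 0.00635 in edgeR's quasi-likelihood test) and Zfp42 lower (-0.45 ± 0.11, adjusted p = 0.0166). The part of these cells in the PRC1 levels was not tested.

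Comparing KO+N-KR with KO+WT asks which of these genes differed between the line carrying N-KR EED and the line carrying wild-type EED. The form of EED, the Eed level and the history of the line cannot be told apart here. None of the 10 members passed edgeR's quasi-likelihood test, where 0.561% of all genes tested did, none had an unadjusted p under 0.05 (the lowest was 0.196, for Pcgf6) and DESeq2 called 0. The interval of the difference limits its size for most members. For Rnf2 the log2 difference was -0.02 with a 95% interval of -0.18 to 0.13, for Rybp -0.04 with -0.18 to 0.11, for Pcgf2 -0.04 with -0.18 to 0.10 and for Pcgf3 -0.04 with -0.18 to 0.09. For Pcgf6 it was -0.12 with -0.30 to 0.07, for Kdm2b 0.00 with -0.19 to 0.18 and for Ring1 0.11 with -0.10 to 0.33. The intervals were widest for Pcgf1 (0.03, -0.27 to 0.34), Pcgf5 (0.07, -0.27 to 0.42) and Bmi1 (0.02, -0.57 to 0.60). No member passed 1.5-fold within a state, where 2.24%, 1.38% and 0.608% of all genes did at 3i, day 1 and day 2. The member farthest from a ratio of 1 was Bmi1 at day 1, with 1.31 times the KO+WT level (1.07 to 1.61), and it was higher in KO+N-KR in every pairing of the libraries. Eed itself was lower in KO+N-KR (-0.97 ± 0.10, adjusted p = 0.000287). Of 11 feeder genes tested 1 was lower and of 6 endoderm genes 2 were higher in KO+N-KR, where 0.561% of all genes passed in either direction. The median log2 fold change was -0.47 for the feeder genes and 1.15 for the endoderm genes. Endoderm sums were 246, 85.6 and 103 CPM in KO+N-KR against 165, 31.0 and 47.3 CPM in KO+WT. Feeder sums were 412, 67.0 and 78.3 CPM against 687, 75.6 and 104 CPM. The part of these cells in the PRC1 levels was not tested.

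Comparing states across the 4 genotypes asks how these genes moved as EBs formed. At day 1, 6 members passed against 3i, where 66.1% of all genes tested did (31.9% as higher, 34.2% as lower), so the count is near the background. Kdm2b rose most among the members (1.45 ± 0.08, adjusted p = 4.49e-09), to 2.91 times its 3i level in KO+N-KR, 2.52 times in KO+WT, 2.48 times in KO and 3.07 times in f/f. Pcgf6 rose (0.41 ± 0.07, adjusted p = 0.000233) and Rybp rose (0.28 ± 0.06, adjusted p = 0.000896). Pcgf5 fell (-0.75 ± 0.14, adjusted p = 0.000338), Pcgf1 fell (-0.36 ± 0.12, adjusted p = 0.0185) and Ring1 fell (-0.27 ± 0.09, adjusted p = 0.0130), all in edgeR's quasi-likelihood test. The KO+N-KR, KO+WT and f/f levels of Pcgf5 at day 1 were 0.529, 0.586 and 0.544 times those at 3i, and that of KO 0.768 times. The Ring1 call was lost with the replicate 2 libraries alone, without KO+WT and without f/f (adjusted p of 0.102, 0.0560 and 0.0517). The Pcgf1 call was lost with the replicate 2 libraries alone, without KO+N-KR and without KO+WT (adjusted p of 0.0528, 0.128 and 0.0809). Rnf2 (0.13 ± 0.06), Pcgf3 (0.13 ± 0.06), Pcgf2 (-0.12 ± 0.06) and Bmi1 (-0.03 ± 0.23) did not pass.

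At day 2, 7 members passed against 3i, where 63.9% of all genes did (33.2% as higher, 30.6% as lower). Pcgf6 (0.44 ± 0.07, adjusted p = 0.000145), Kdm2b (0.43 ± 0.08, adjusted p = 0.000218), Pcgf3 (0.23 ± 0.06, adjusted p = 0.00233) and Bmi1 (0.61 ± 0.23, adjusted p = 0.0302) rose. Rnf2 (-0.36 ± 0.06, adjusted p = 0.000237), Ring1 (-0.38 ± 0.09, adjusted p = 0.00145) and Pcgf2 (-0.19 ± 0.06, adjusted p = 0.00918) fell. The Bmi1 value rests on KO, where day 2 was 3.45 times 3i, against 1.04 times in KO+N-KR, 0.959 times in KO+WT and 1.43 times in f/f. Without KO it was 0.18 (adjusted p = 0.264), without f/f 0.64 (adjusted p = 0.0900) and in DESeq2 0.55 (adjusted p = 0.110). Without KO+WT the Pcgf2 value was -0.15 (adjusted p = 0.0901). Pcgf5 did not pass over all genotypes (-0.01 ± 0.13), but fell when KO was left out (-0.26, adjusted p = 0.0192). Its day 2 level in KO was 1.61 times that at 3i, against 0.833, 0.875 and 0.805 times in KO+N-KR, KO+WT and f/f. Pcgf1 (-0.02 ± 0.12) and Rybp (0.09 ± 0.06) did not pass.

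Between day 1 and day 2, 6 members passed, where 55.7% of all genes did (29.4% as higher, 26.3% as lower). Kdm2b (-1.01 ± 0.08, adjusted p = 2.91e-07), Rnf2 (-0.49 ± 0.06, adjusted p = 2.76e-05) and Rybp (-0.19 ± 0.06, adjusted p = 0.0153) fell. Pcgf5 (0.74 ± 0.14, adjusted p = 0.000561), Bmi1 (0.63 ± 0.22, adjusted p = 0.0279) and Pcgf1 (0.35 ± 0.12, adjusted p = 0.0279) rose. Pcgf1 and Pcgf5 thus had their lowest tested state at day 1, where Kdm2b and Rybp had their highest. Without f/f the Bmi1 value was 0.63 with adjusted p = 0.100, and DESeq2 gave 0.60 with adjusted p = 0.0910. The Pcgf1 call was lost with the replicate 2 libraries alone, without KO+N-KR and without KO+WT (adjusted p of 0.191, 0.135 and 0.112), and the Rybp call without KO+N-KR, KO+WT or KO (adjusted p of 0.0666, 0.0533 and 0.0565). Feeder gene sums fell steeply between 3i and the EB samples, and 9 of 11 tested feeder genes were lower at day 1 against 3i, where 34.2% of all genes were. At day 2 against 3i, 9 were lower and 2 higher, where 30.6% and 33.2% of all genes were. From day 1 to day 2, 5 feeder genes were higher and 1 lower, where 29.4% and 26.3% of all genes were. The part of feeder cells in the state differences was not tested.

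**Figure D4:**
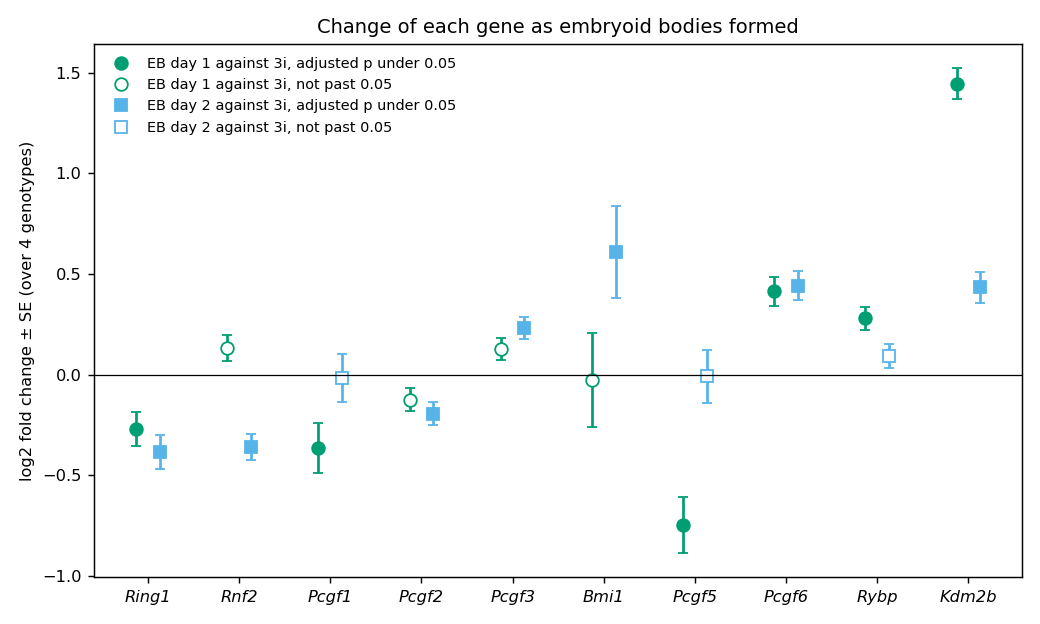
Log2 fold change of each member at EB day 1 and EB day 2 against 3i, as the fitted value over 4 genotypes with bars for ± 1 SE, filled where the adjusted p is under 0.05. Kdm2b stands apart at day 1 (1.45), Pcgf5 is lowest there (-0.75), and the Bmi1 bars are the widest.

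A PRC1 complex holds a single PCGF protein, and the 6 PCGF genes can be read as shares of their summed level per kb. Pcgf6 took the largest share in each of the 12 samples, 38.8% to 53.5%, and Pcgf2 the next, 19.0% to 30.2%. Pcgf1 took 7.36% to 14.6%, Pcgf3 7.77% to 11.6%, Bmi1 2.49% to 12.2% and Pcgf5 1.73% to 5.27%. At day 2 Bmi1 took 12.2% in KO, against 3.25% in KO+N-KR, 3.59% in KO+WT and 4.90% in f/f. Pcgf5 took 5.27% in KO, against 2.55%, 2.504% and 2.67% in KO+N-KR, KO+WT and f/f. These are shares of mRNA per kb, not of protein, and they move with the lengths used.

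**Figure D5:**
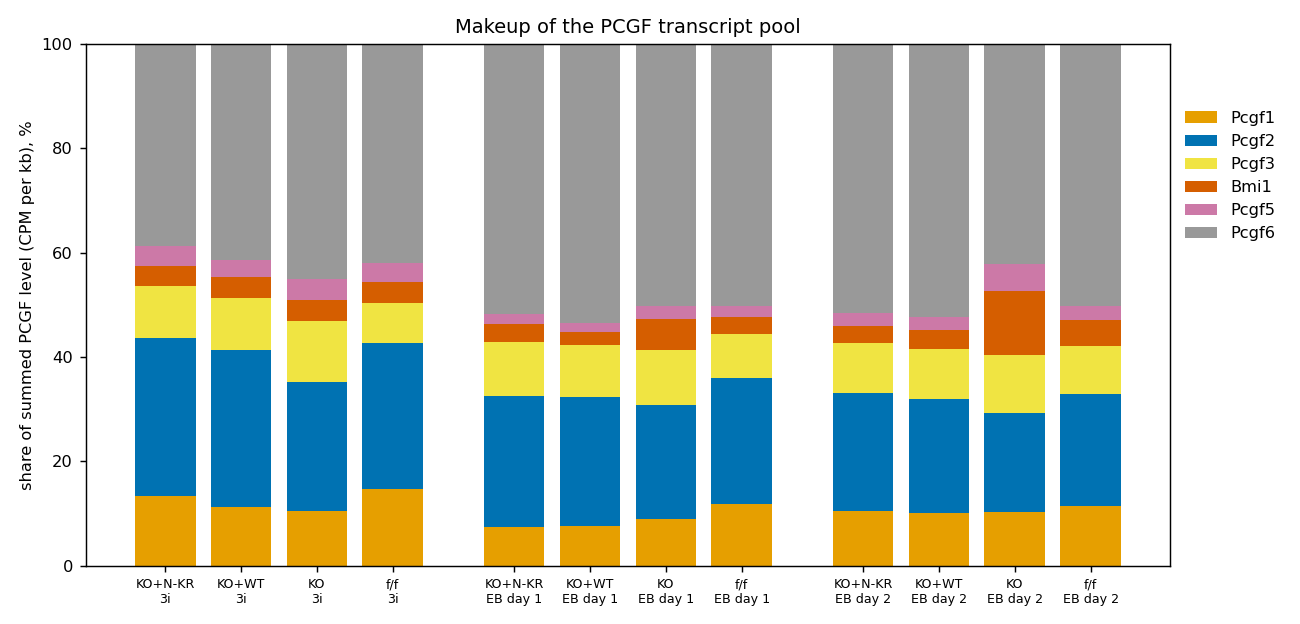
Share of each PCGF gene in the summed CPM per kb of the 6 PCGF genes, as stacked bars in percent for each genotype and state. The Bmi1 and Pcgf5 bands are widest in KO at EB day 2 (12.2% and 5.27%).

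The partners of each PCGF protein were described from lists that do not include the members. Their counts stand against the shares of all genes that passed as higher and as lower, which were 4.64% and 4.58% in KO against f/f, 7.11% and 9.06% in KO+WT against KO, 31.9% and 34.2% at day 1, 33.2% and 30.6% at day 2, and 29.4% and 26.3% from day 1 to day 2. Of 5 PCGF1 partners, Bcor, a corepressor of that complex, rose in KO against f/f (0.26 ± 0.07, adjusted p = 0.0359 in edgeR's quasi-likelihood test). In KO+WT against KO 1 rose, the deubiquitinase gene Usp7 (0.19), and 2 fell, Yaf2, the paralog of Rybp (-0.60 ± 0.12, adjusted p = 0.00580), and Bcorl1, the paralog of Bcor (-0.53 ± 0.15, adjusted p = 0.0270). At day 1 against 3i Bcor rose (1.11 ± 0.06) as Kdm2b did, with Usp7 (0.23), and Bcorl1 fell (-0.40). At day 2, 4 rose, led by Bcor (1.27 ± 0.06) and Yaf2 (0.75 ± 0.11), and Bcorl1 fell (-0.63). From day 1 to day 2 Yaf2 (1.00 ± 0.11) and Bcor (0.16) rose. Skp1a, which the series title names and whose protein is part of the PCGF1 complex as well as of SCF ligases, was at 365, 363 and 405 CPM in KO+N-KR, 395, 386 and 421 CPM in KO+WT, 345 to 385 CPM in KO and 389, 406 and 395 CPM in f/f. It did not pass in any of the genotype comparisons, with adjusted p of 0.0756 or more.

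Of 7 PCGF3 and PCGF5 partners none passed in KO against f/f. In KO+WT against KO the casein kinase gene Csnk2a2 fell (-0.48 ± 0.05, adjusted p = 0.000163 in edgeR's quasi-likelihood test) and Csnk2a1 rose (0.16). At day 1 the 3 kinase genes rose, with Csnk2a1 at 0.24 and Csnk2b at 0.20, and Fbrsl1 (-1.001 ± 0.07) and Fbrs (-0.46 ± 0.08), both relatives of Auts2, fell. At day 2 Auts2 (0.51 ± 0.13) and Csnk2a2 (0.31 ± 0.05) rose most and Fbrsl1 (-0.58) and Fbrs (-0.38) were again lower than at 3i. Of 9 PCGF6 partners 2 fell in KO against f/f, L3mbtl2, a scaffold of that complex (-0.27 ± 0.08, adjusted p = 0.0455), and the histone deacetylase gene Hdac1 (-0.25 ± 0.05, adjusted p = 0.0174). In KO+WT against KO 4 rose, led by L3mbtl2 (0.43 ± 0.08) and Max (0.23), and 1 fell, Tfdp1, an E2F partner (-0.62 ± 0.05). At day 1, where 31.9% of all genes rose, 8 of the 9 did, with L3mbtl2 at 1.09 ± 0.07 and Max at 0.46 ± 0.06, and Wdr5 fell (-0.15). From day 1 to day 2, 7 fell, where 26.3% of all genes did, and none rose, led by L3mbtl2 (-0.73 ± 0.07) and Tfdp1 (-0.56 ± 0.05), while Pcgf6 did not pass (0.03 ± 0.07).

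Of 10 canonical PRC1 partners 1 rose in KO against f/f, the SAM domain gene Scmh1 (0.35 ± 0.09, adjusted p = 0.0322 in edgeR's quasi-likelihood test), and 3 fell, led by the CBX gene Cbx6 (-0.37 ± 0.10) and the polyhomeotic gene Phc1 (-0.26 ± 0.08). In KO+WT against KO Phc1 (0.44 ± 0.08) and Cbx6 (0.35 ± 0.10) were among 3 that rose, and Phc2 (-0.42 ± 0.10) and Scmh1 (-0.30 ± 0.09) fell. At day 1, 4 rose, led by Phc1 (1.14 ± 0.07), and 3 fell. Of 5 deubiquitinase genes, whose products remove the H2A mark or serve the enzyme that does, none passed in KO against f/f, and Asxl2 rose in KO+WT against KO (0.25 ± 0.07). Asxl1 rose at day 1 (0.47 ± 0.06) and at day 2 (0.60 ± 0.06). In KO+N-KR against KO+WT no gene of these 5 lists passed. Of the 6 PRC2 core genes 3 were lower in KO than in f/f, led by Eed (-0.35 ± 0.10) and the histone chaperone gene Rbbp4 (-0.29 ± 0.05), and both of these were higher in KO+WT than in KO (1.17 ± 0.10 and 0.27 ± 0.05). KO against f/f had medians of 0.24 for the PCGF1 partners, -0.01 for the PCGF3 and PCGF5 partners, -0.11 for the PCGF6 partners and -0.12 for the canonical partners.

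The genes most like each member in pattern were read from Pearson's r of log2 CPM over the 12 samples, among 9322 genes with a mean of at least 10 CPM, as a description. The samples share states and genotypes, so a high r can come from the course over states alone. Kdm2b was most like Zfp281 (r = 0.992) and Ikbkap (0.991), Pcgf6 like Srsf10 (0.974) and Ppp2r2a (0.971), and Rnf2 like Myadm (0.970) and D16Ertd472e (0.968). Pcgf5 was most like Commd3 (0.959) and Rfxap (0.948), Pcgf3 like Casc4 (0.952) and Slc25a46 (0.940), and Ring1 like Caskin2 (0.944) and Chmp4c (0.939). Pcgf2 was most like Pdcd2 (0.940) and Lars (0.923), Pcgf1 like Tmco6 (0.939) and Ndufa7 (0.931), Rybp like Lrp6 (0.936) and Nfkb1 (0.925), and Bmi1 like Arhgap10 (0.911) and Fyn (0.895). Among the members themselves the highest r was 0.69, between Bmi1 and Pcgf5, followed by 0.65 between Pcgf6 and Kdm2b. The lowest was -0.90, between Pcgf5 and Kdm2b, followed by -0.78 between Ring1 and Pcgf6.

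Reads of genes on opposite strands that overlap cannot be told apart where the strand setting of the count is unknown, and those of genes on 1 strand cannot with any setting. In a later annotation, exons of Kdm2b overlap those of the antisense gene A930024E05Rik, which had a mean of 4.75 CPM and rose at day 1 (3.50 ± 0.18, adjusted p = 3.17e-09 in edgeR's quasi-likelihood test), and those of Rnf34. The overlap with A930024E05Rik is 199 bases of a gene with 5860 bases of exon. A930024E05Rik was at -0.62 ± 0.18 in KO against f/f (adjusted p = 0.0507) and rose in KO+WT against KO (0.60 ± 0.18, adjusted p = 0.0401). Rnf34, which overlaps Kdm2b by 627 bases, had a mean of 52.5 CPM and did not pass in any of the 6 comparisons. Kdm2b also overlaps Gm44574, a gene on the same strand, by 124 bases, and that gene was not analysed here. Pcgf5 overlaps the antisense gene F530104D19Rik by 60 bases, a gene not analysed here.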

How the data were processed

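The authors deposited 1 table of raw counts per gene for 23284 symbols. Of its 30 columns, 24 carry a library name of the labels and were used, and 6 were not. The submitters' processing notes name STAR 2.5.2b, DESeq2 and build mm9. Which counter, strand setting and annotation were used is not given in the sources used here.

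Libraries of a group were summed to 1 sample, since they differed by little more than sampling noise (genes with at least 20 reads per pair). The 12 sums were fitted with genotype and state as additive terms in edgeR 4.0.16 (R 4.3.3, TMM, filterByExpr by genotype), leaving 6 residual degrees of freedom and a common coefficient of variation of 7.94%. Standard errors were computed as the fold change over the root of F. Ratios within a state are printed from CPM without a prior count. The 1.5-fold call and the log2 ratios of the results flagged for a closer look use a prior count of 2. Alternatives were DESeq2 1.42.0, other scalings and filters, the 24 libraries with and without a replicate block, and leaving out replicates, states or genotypes.

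The members and lists were chosen with earlier results of these data known. All 10 members are named. Of each partner list, at most 2 genes past the threshold per direction are named, those with the largest change, and for pattern the 2 genes with the highest r. The other genes named (Skp1a, Eed and genes that overlap a member) were chosen after their values were seen. Exon lengths and overlaps come from GENCODE M21 (GRCm38) and promoters from RefSeq (GRCm38.p6), and no coordinate was taken from the counted build.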

Additional observations from a re-analysis of the deposited data

Results flagged for a closer look

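Some differences between genotypes ran in opposite directions in 2 states, in every pairing of the libraries and with counting intervals on opposite sides of a ratio of 1. They were picked by this rule from all members, genotype comparisons and pairs of states, and the rule covers little more than counting error. With 1 sample per genotype and state, none of these differences between states was tested. The share of all genes that meet the rule was not computed. For Kdm2b the interval began at 1.004 at 3i in KO against f/f, and at 1.007 at day 1 in KO+N-KR against KO+WT.

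Kdm2b in KO against f/f had a log2 ratio of 0.08 at 3i, -0.23 at day 1 and -0.53 at day 2, which is a difference of -0.31 between day 1 and 3i and of -0.612 between day 2 and 3i. Kdm2b in KO+N-KR against KO+WT had a log2 ratio of -0.15 at 3i, 0.05 at day 1 and 0.08 at day 2, a difference of 0.203 between day 1 and 3i and of 0.223 between day 2 and 3i. Rnf2 in KO+N-KR against KO+WT had a log2 ratio of -0.13 at 3i and 0.11 at day 1, a difference of 0.241.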

How the results depend on the processing

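Of the member log2 values recomputed under other settings, 669 kept their direction and their side of the threshold, 41 kept their direction and lost the call, 40 gained one, and 30 changed sign. None of those that changed sign passed the test before or after. The cause of each change was not tested unless stated. All tests are edgeR's quasi-likelihood test with Benjamini-Hochberg adjustment unless DESeq2 is named.

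Replicate numbers did not pair the libraries: their deviations correlated by -0.0377 to 0.0346 over 66 pairs of groups. With the 24 libraries as single samples, where the spread is near that of sequencing alone, KO against f/f gave 4711 genes and 8 members with a replicate block, and 4856 and 8 with no block, against 1380 and 3 from the 12 sums. KO+WT against KO gave 5286 genes and 7 members with the block, and 5400 and 7 without it, against 2422 and 4. KO+N-KR against KO+WT gave 603 genes with the block and 652 without it, against 84, and 0 members in each.

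With the libraries of 1 replicate number alone, KO against f/f gave 808 to 935 genes and 1 to 2 members. Leaving out a state left fewer samples. Without day 1, KO against f/f gave 0 genes and 0 members (2272 of 15111 genes at an unadjusted p under 0.05; DESeq2 was not run on that subset), KO+WT against KO 225 and 0, and KO+N-KR against KO+WT 30 genes. Without day 2, KO against f/f gave 339 genes and 1 member, and KO+WT against KO 1263 and 2. Without 3i, KO+WT against KO gave 1185 genes higher and 1667 lower of 14844 tested, and 7 members. With only the compared genotypes in the fit, KO against f/f gave 782 genes and 1 member, and KO+N-KR against KO+WT 200 genes. KO+WT against KO then gave 793 genes higher and 981 lower of 14445 tested, and 2 members. DESeq2's Wald test gave 133 genes in KO+N-KR against KO+WT. At a size of 2-fold in place of 1.5-fold, 1 value of a member in a state passed in KO against f/f, in place of 4. The share of all genes past 2-fold was not computed.

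Scaling by library totals alone gave 1083 genes higher and 327 lower in KO against f/f, in place of 694 and 686, and 3976 and 6012 at day 1 against 3i, in place of 4777 and 5121, with a median of all genes of -0.11. KO+WT against KO was 890 and 1510 in place of 1065 and 1357, and day 2 against day 1 was 4934 and 3371 in place of 4406 and 3933. That scaling lost Pcgf1 in KO against f/f and added Pcgf2 at day 1 and Pcgf3 at day 2 against day 1 (0.15, adjusted p = 0.0306). The filter by the design matrix was tried after the data were seen, and under it Pcgf1 missed the threshold in KO against f/f (adjusted p = 0.0501). In KO+WT against KO, 1 call each was lost without day 1 for Kdm2b (0.47, adjusted p = 0.110) and Pcgf2 (0.38, adjusted p = 0.0740), and 3 calls each for Bmi1 and Pcgf5.

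The log2 values that changed sign were close to 0. At day 1 against 3i, Bmi1 was at 0.0228 with the replicate block and 0.0246 without it, 0.173 without KO+WT and 0.00912 without f/f, and -0.0596 to 0.0885 with 1 replicate number. At day 2 against 3i, Pcgf5 was at 0.01601 with the block and 0.0162 without it, 0.0745 without KO+N-KR, 0.0498 without KO+WT and 0.0938 without f/f (-0.0595 to 0.0806 with 1 replicate number), and Pcgf1 was at 0.00376 without KO+N-KR and 0.0365 without f/f (-0.0933 to 0.0329). At day 2 against day 1, Pcgf6 was at -0.0291 without KO+N-KR and -0.00139 without f/f. In KO+N-KR against KO+WT, Kdm2b was at 0.00541 with the block and 0.00537 without it, and 0.0661 without 3i (-0.0327 to 0.0388 with 1 replicate number). In that comparison, without 3i, Pcgf1 was at -0.0282 (-0.01602 to 0.0995 with 1 replicate number), Rnf2 at 0.0361 and Rybp at 0.0192. Without day 1, Bmi1 was at -0.164, and with 1 replicate number Ring1 ran from -0.0797 to 0.229. In KO+WT against KO, Pcgf1 was at -0.0649 without 3i (-0.00995 to 0.151 with 1 replicate number) and Ring1 ran from -0.182 to 0.00639. In KO against f/f, Ring1 ran from -4.42e-05 to 0.0997.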
